A study of Homo sapiens with 12 samples.

Results

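The genes described here are 10 that are widely used to read out Wnt signalling and stem cell identity in intestinal cells: LGR5, ASCL2, AXIN2, SOX9, EPHB2, NKD1, RNF43, ZNRF3, NOTUM and TCF7. They were picked by symbol as known pathway and stem cell genes, with earlier results of these data already known. They came from 26485 gene symbols listed for every library, including symbols without reads. All 10 had enough reads to be tested among 13619 genes. The libraries came from DLD1, an established human colorectal cancer line with mutant APC, and held polyadenylated RNA from 4 groups of 3 libraries, 12 in all, each after 1 h. One group received the vehicle DMSO, one TCDD, one kynurenine (Kyn) and one CH223191 (CH), each compound at 10 µM; the series title and design text give CH its name, time and dose, and the protocol text does not mention it. The labels name no introduced gene or mutation in any group, and all values describe this 1 line. Whether the 3 libraries of 1 treatment were grown separately is not stated, so p-values measure only the spread between these libraries, which may be technical.

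Wnt ligands bind Frizzled and LRP receptors at the cell surface, which stops a cytoplasmic complex containing APC and AXIN from marking β-catenin for destruction. Stable β-catenin enters the nucleus, joins TCF and LEF proteins on DNA and switches on target genes, several of which encode inhibitors of the same pathway. In the intestinal crypt this programme maintains stem cells, and in most colorectal cancers loss of APC function keeps it running without a ligand. The aryl hydrocarbon receptor (AHR) is a ligand-activated transcription factor, for which TCDD is a potent agonist, kynurenine a tryptophan metabolite with agonist activity and CH223191 an antagonist.

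The files held 21397703 to 28247146 counted reads per library. The 4 AHR response genes used to check the labels, CYP1A1, CYP1B1, AHRR and TIPARP, all rose with TCDD and all fell with CH. CYP1A1, which encodes a xenobiotic-metabolising enzyme, averaged 3.22 ± 0.142 CPM (the usual depth-scaled read count, on totals adjusted by TMM factors; mean ± SD, n = 3) with DMSO, 428 ± 15.9 with TCDD, 10.1 ± 1.01 with Kyn and 0.520 ± 0.188 with CH. Kyn raised CYP1A1, while CYP1B1 and TIPARP fell and AHRR did not pass the test. The TIPARP call (adjusted p = 0.027) was lost without any 1 of the DMSO libraries or without the first or the second Kyn library (highest 0.15). It was also lost in a fit of only the DMSO and Kyn libraries (0.084). The epithelial genes KRT8 (4324 to 4928 CPM) and EPCAM (1199 to 1326 CPM) were high in all 12 libraries, as was the intestinal factor CDX2 (92.8 to 168 CPM). Other markers of the same list were low, with VIL1 at 1.99 to 2.97 CPM, KRT20 at 2.52 to 3.81 CPM and CDX1 at most 0.121 CPM. The 9 epithelial markers summed to 9117 to 9644 CPM with DMSO, 8871 to 9051 with TCDD, 9612 to 9931 with Kyn and 9322 to 9569 with CH. KRT8 gave the largest part of this sum, with a mean of 4642 CPM over the 12 libraries. Markers of other cell types were low in every group: 8 fibroblast genes summed to at most 1.30 CPM with DCN at 0, 8 endothelial genes to at most 8.35 CPM with KDR at 0, and 9 immune genes to at most 17.6 CPM with CD3D at 0. The first Kyn library stood farther from the other Kyn libraries than any other library stood from its group (a count variance of 4.64 and 4.60 times sampling noise, against at most 3.94 in the other pairs of 1 group), so results that rest on it are also given without it.

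Promoter sequences are shown because AHR binds a short DNA core, GCGTG, and TCF proteins bind CTTTGAT or CTTTGAA, so both can be looked for before the start of a member gene. The RefSeq promoter table (GRCh38.p14, 250 bases before to 50 after a start) held EPHB2, RNF43 and TCF7, 3 of the 10 members. Searched on both strands, the AHR core was in 3 of the 6 windows of these genes, both of EPHB2, which are the same stretch shifted by 1 base, and 1 of the 2 of RNF43, against 36.5% of 35116 windows of the same length. The TCF letters were in 0 of the 6, against 6.86% of all windows. The EPHB2 stretch is chr1:22710588-22710837 on the plus strand, with the core on the opposite strand (CACGC) beginning 217 bases before the start. The RNF43 stretch is chr17:58417596-58417784 on the minus strand, with the core beginning 71 bases before the start. It leaves out the last 61 bases before the start because the annotated exon that follows is not shown. Capitals mark the core or its reverse complement, and each sequence is written from 5′ to 3′ in the direction of the gene.
EPHB2: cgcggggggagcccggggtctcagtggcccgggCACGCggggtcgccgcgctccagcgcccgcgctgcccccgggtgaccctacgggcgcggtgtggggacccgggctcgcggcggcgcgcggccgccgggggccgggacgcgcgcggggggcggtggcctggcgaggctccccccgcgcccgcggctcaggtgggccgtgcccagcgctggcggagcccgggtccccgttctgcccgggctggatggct
RNF43: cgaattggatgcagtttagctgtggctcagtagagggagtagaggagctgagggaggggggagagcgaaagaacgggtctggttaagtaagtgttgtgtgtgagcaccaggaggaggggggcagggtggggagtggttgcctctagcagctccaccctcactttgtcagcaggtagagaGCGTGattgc
A match of 5 letters describes the sequence and is not evidence of binding.

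In the vehicle libraries the members differed widely in level, compared here per kilobase of annotated exon. SOX9 (103 ± 3.01 CPM per kb), AXIN2 (97.0 ± 2.18) and ASCL2 (86.4 ± 1.91; mean ± SD, n = 3) were the highest. RNF43 (21.1 ± 0.402), LGR5 (18.4 ± 0.562), ZNRF3 (13.8 ± 0.850) and EPHB2 (10.1 ± 0.551) formed a middle range. TCF7 (3.84 ± 0.168), NOTUM (1.49 ± 0.155) and NKD1 (1.37 ± 0.0819) were lowest. Neighbours in this order did not overlap between libraries, except NOTUM and NKD1. The lengths count every annotated exon, long untranslated ends included, so genes with such ends read low on this scale. DLD1 cells thus held reads of every member. Of 28 other intestinal stem cell genes listed below, 19 had enough reads to be tested. The crypt stem cell markers OLFM4 and SMOC2 were among those that did not, with at most 1 and 4 reads in a library.

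**Figure D1:**
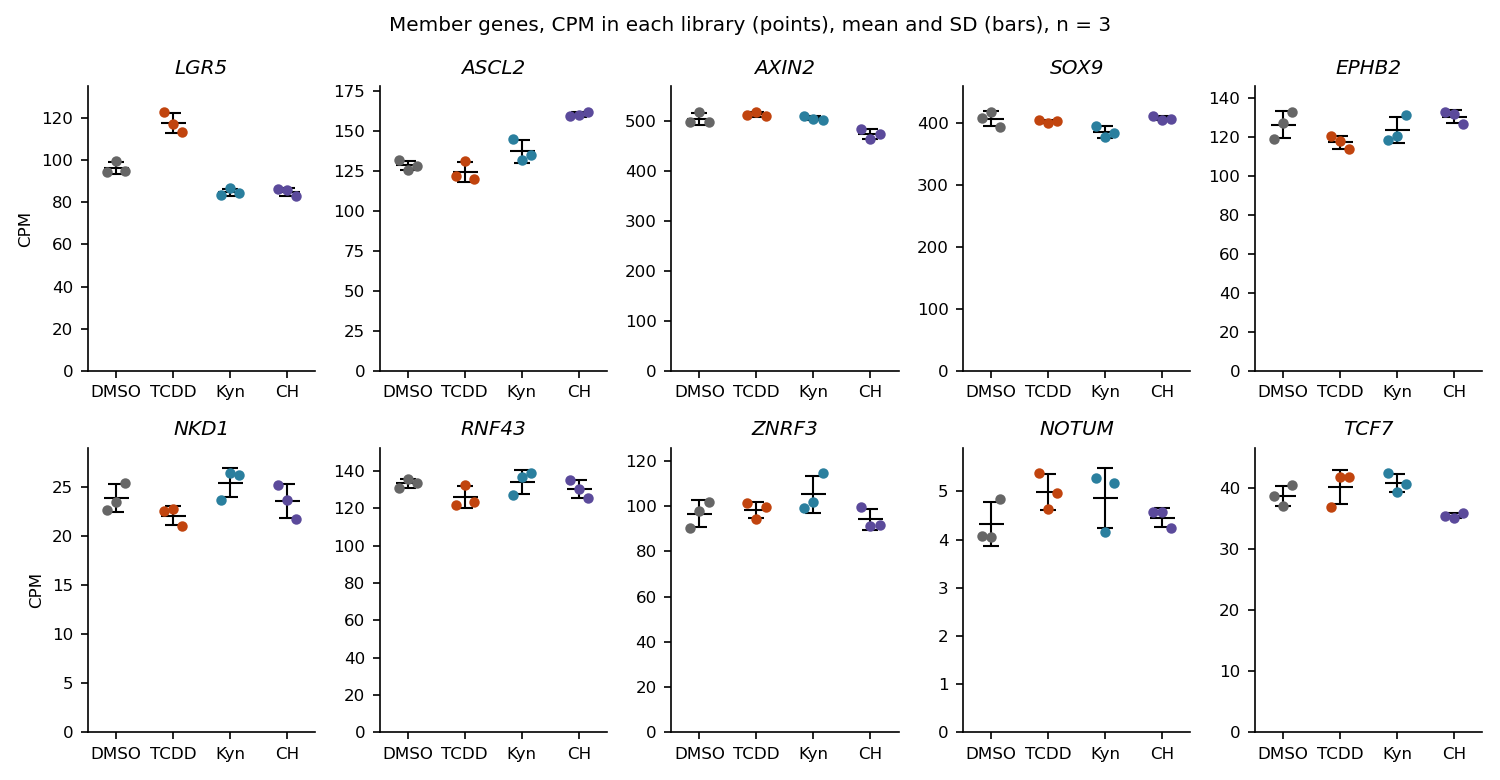
CPM of the 10 member genes in each of the 12 libraries, 1 panel per gene, with points for libraries and bars for the group mean and SD. The TCDD libraries of LGR5 lie at 113 to 123 CPM, above every other library, and the CH libraries of ASCL2 lie at 159 to 162 CPM, also above every other library.

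LGR5, a receptor for R-spondins and the classical marker of crypt base stem cells (chr12:71439798-71586310, plus strand, hg38), was the member that changed with all 3 compounds. Its level was 94.1, 99.5 and 94.7 CPM in the DMSO libraries, 123, 117 and 113 with TCDD, 83.4, 86.5 and 84.2 with Kyn, and 86.0, 85.8 and 82.7 with CH. Every TCDD library stood above every DMSO library, and every Kyn and CH library stood below. TCDD raised LGR5 by 22.6% (95% interval 16.1 to 29.4%; log2 fold change 0.29, SE 0.0385, adjusted p = 1e-06), where a call is an adjusted p under 0.05 in edgeR's quasi-likelihood test with Benjamini-Hochberg adjustment over all tested genes. LGR5 fell by 0.18 on the log2 scale with Kyn (SE 0.0392, adjusted p = 0.022) and by 0.18 with CH (SE 0.0393, adjusted p = 0.00051). Between Kyn and CH the difference was -0.0031 (95% interval -0.0837 to 0.0775 on the log2 scale, adjusted p = 0.96). The call with Kyn was lost without the second DMSO library (adjusted p = 0.19), the first Kyn library (0.065) or the third Kyn library (0.096) and in the fit of only these 2 groups (0.083), with a log2 fold change of -0.16 to -0.18 in these fits; the calls with TCDD and CH held under all 20 alternatives. In RNA pooled from a culture, a change in the share of LGR5-expressing cells and a change in LGR5 RNA per cell cannot be told apart.

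The gene that overlaps LGR5 on the opposite strand, TSPAN8, encodes a tetraspanin and shares 0 exonic bases with it. TSPAN8 averaged 108 ± 2.08 CPM with DMSO, 107 ± 4.08 with TCDD, 108 ± 1.13 with Kyn and 96.4 ± 3.52 with CH (n = 3 each). It fell with CH (log2 fold change -0.17, adjusted p = 0.00057), and its differences were -0.02 with TCDD (adjusted p = 0.85) and -0.0063 with Kyn (adjusted p = 1). Whether reads were counted by strand is not given in the sources used here, and the part of reads from 1 gene in the count of the other was not tested.

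EPHB2 (chr1:22710839-22921500, plus strand), a receptor tyrosine kinase that positions cells along the crypt, was at 119, 127 and 133 CPM with DMSO, 120, 118 and 114 with TCDD, 118, 120.5 and 131 with Kyn, and 133, 131 and 126.5 with CH. The TCDD libraries overlapped the DMSO libraries at their lower end and lay below all 3 CH libraries. EPHB2 was 10.0% lower with TCDD than with CH (log2 difference -0.15, 95% interval -0.24 to -0.07, SE 0.0418, adjusted p = 0.0041), a call that held under all 20 alternatives. Against DMSO the fold change was -0.11 with TCDD (adjusted p = 0.097), -0.03 with Kyn (0.94) and 0.05 with CH (0.42). Leaving out the first DMSO library made the TCDD difference a call (adjusted p = 0.035), and leaving out the third Kyn library made the difference between Kyn and CH one (0.028).

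ASCL2, a basic helix-loop-helix transcription factor that sets crypt stem cell identity (chr11:2268498-2270588, minus strand), moved most with the antagonist. It was at 131, 126 and 128 CPM with DMSO, 121.5, 131 and 120.0 with TCDD, 145, 131 and 135 with Kyn, and 159, 159.6 and 162 with CH. The CH libraries stood above the other 9, and the TCDD and DMSO libraries overlapped. CH raised ASCL2 by 24.8% (95% interval 18.2 to 31.8%; log2 fold change 0.32, SE 0.0387, adjusted p = 4.4e-08), and the differences were -0.05 with TCDD (adjusted p = 0.5) and 0.10 with Kyn (0.59). ASCL2 was also lower with TCDD than with CH (log2 difference -0.37, adjusted p = 1.9e-09) and lower with Kyn than with CH (-0.22, 2.1e-05), and these calls against CH held under all 20 alternatives. The lower level with TCDD than with Kyn (-0.14, adjusted p = 0.017) was lost without the first TCDD (0.082), the third TCDD (0.12) or the first Kyn library (0.15, with a difference of -0.10), and with GC and length trends removed (0.17).

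LGR5 and ASCL2, both markers of the crypt base, thus differed in opposite directions between CH and DMSO. The number of LGR5 reads per ASCL2 read was 0.717 to 0.791 with DMSO, 0.893 to 1.01 with TCDD, 0.576 to 0.658 with Kyn and 0.512 to 0.541 with CH. The ranges of the 4 groups did not overlap. This ratio needs no scaling between libraries, and it is a ratio of reads and not of transcripts. It was not among the planned results and restates the differences of LGR5 and ASCL2 given above, so it adds no separate support. How often other pairs of genes separate the 4 groups in this way was not counted.

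SOX9, a transcription factor of crypt progenitors and Paneth cells (chr17:72121020-72126416, plus strand), stayed between 377 and 418 CPM in all 12 libraries. It was at 408, 418 and 394 CPM with DMSO, 405, 399.7 and 403 with TCDD, 396, 377 and 383 with Kyn, and 411, 404 and 407 with CH. SOX9 passed no test against DMSO, with fold changes of -0.01 with TCDD (adjusted p = 0.85), -0.08 with Kyn (0.6) and 0.0037 with CH (0.95). Its lower level with Kyn than with CH (log2 difference -0.08, adjusted p = 0.048) was near the threshold and was lost under 13 of 20 alternatives, among them the fits without any one of the TCDD or CH libraries or without the second or the third Kyn library (adjusted p = 0.052 to 0.19).

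TCF7, which encodes TCF1, one of the DNA-binding partners of β-catenin (chr5:134114681-134151865, plus strand), was lowest with CH. Its level was 38.7, 37.0 and 40.4 CPM with DMSO, 37.0, 41.8 and 41.9 with TCDD, 42.4, 39.4 and 40.7 with Kyn, and 35.5, 35.1 and 35.8 with CH. The CH libraries lay below the other 9. TCF7 was higher with Kyn than with CH (log2 difference 0.20, SE 0.0516, adjusted p = 0.0022) and higher with TCDD than with CH (0.18, SE 0.0524, adjusted p = 0.0063), the latter lost without the third TCDD library (0.055). The difference between CH and DMSO was -0.13 (95% interval -0.23 to -0.02, adjusted p = 0.058), which became a call without the second DMSO library (0.033). TCF7 shares 210 exonic bases, 2.08% of its annotated exon length, with SKP1 on the opposite strand, a ubiquitin ligase subunit whose difference between CH and DMSO was 0.03 (adjusted p = 0.53).

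The feedback inhibitors are targets whose products damp the pathway, and AXIN2, a scaffold of the destruction complex (chr17:65528563-65561648, minus strand), is the most commonly used. It was at 498, 517 and 497 CPM with DMSO, 512, 518 and 509 with TCDD, 511, 503 and 503 with Kyn, and 483, 463 and 474 with CH. The CH libraries were below the other 9, and the other 3 groups overlapped. AXIN2 fell by 0.09 on the log2 scale with CH (95% interval -0.15 to -0.03, SE 0.0310, adjusted p = 0.023), and the differences were 0.03 with TCDD (0.67) and 0.0037 with Kyn (1). The call with CH was lost without the second DMSO library (adjusted p = 0.11, log2 fold change -0.07), without the second CH library (0.14, -0.07) and with library totals in place of TMM scaling (0.1, -0.07). AXIN2 was also higher with TCDD than with CH (0.12, adjusted p = 0.0033, held under all 20 alternatives) and higher with Kyn than with CH (0.09, adjusted p = 0.017), the latter lost without the second CH library (0.11) and with library totals (0.089).

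RNF43 and ZNRF3 are related membrane ubiquitin ligases that remove Frizzled receptors from the cell surface. RNF43 (chr17:58353676-58417595, minus strand) averaged 133 ± 2.55, 126 ± 5.72, 134 ± 6.41 and 130 ± 4.88 CPM with DMSO, TCDD, Kyn and CH, and passed no test against DMSO (adjusted p = 0.2, 1 and 0.58). Without the first Kyn library its lower level with TCDD than with Kyn passed (adjusted p = 0.046, against 0.17 with it). ZNRF3 (chr22:28883572-29057488, plus strand) was at 90.1, 97.9 and 102 CPM with DMSO, 101, 94.2 and 99.4 with TCDD, 99.2, 102 and 114 with Kyn, and 99.5, 91.2 and 91.6 with CH, and the 4 groups overlapped. ZNRF3 passed no test against DMSO (adjusted p = 0.8, 0.55 and 0.6 with TCDD, Kyn and CH) and was higher with Kyn than with CH (log2 difference 0.16, adjusted p = 0.011), although the libraries of these groups overlapped. That call was lost without the third Kyn (0.16) or the second CH library (0.072). RNF43 reads per ZNRF3 read spanned 1.31 to 1.45 with DMSO, 1.20 to 1.41 with TCDD, 1.21 to 1.35 with Kyn and 1.36 to 1.43 with CH. These ranges overlapped, except that the Kyn libraries lay below the CH libraries.

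NKD1, a cytoplasmic antagonist that binds Dishevelled (chr16:50548396-50649249, plus strand), was at 22.7, 23.4 and 25.4 CPM with DMSO, 22.5, 22.7 and 21.0 with TCDD, 23.7, 26.4 and 26.2 with Kyn, and 25.2, 23.7 and 21.8 with CH. NKD1 did not pass against DMSO (adjusted p = 0.28, 0.88 and 0.9 with TCDD, Kyn and CH). Its lower level with TCDD than with Kyn (log2 difference -0.20, SE 0.0627, adjusted p = 0.036) was lost without the first (0.06) or the third TCDD library (0.19), without the second (0.12) or the third Kyn library (0.11) with DESeq2 (0.077) and with GC and length trends removed (0.1). NOTUM, a secreted enzyme that removes the lipid from Wnt ligands (chr17:81952507-81961840, minus strand), had the fewest reads of the 10, 92 to 148 per library. NOTUM was at 4.08, 4.05 and 4.85 CPM with DMSO, 5.37, 4.63 and 4.97 with TCDD, 5.27, 4.15 and 5.17 with Kyn, and 4.57, 4.57 and 4.23 with CH. The NOTUM difference between TCDD and DMSO was 0.21 with a wide interval (-0.04 to 0.46, adjusted p = 0.3) that includes both 0 and the change of LGR5.

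Counted over the 10 members, 1 was called with TCDD (LGR5, higher), against 11.7% of all tested genes (5.91% higher and 5.83% lower). With Kyn 1 was called (LGR5, lower), against 0.294% of all genes (0.154% higher and 0.14% lower), and with CH 3 were called (ASCL2 higher, LGR5 and AXIN2 lower), against 32.8% (15.9% higher and 16.9% lower). The counts with TCDD and CH were near the shares of all genes, and the count with Kyn was 1 gene whose call depended on single libraries. The median log2 fold change of the members was 0.01 with TCDD, 0.04 with Kyn and -0.02 with CH, and that of all genes lay within 0.003 of 0 in each. At an unadjusted p under 0.05 the counts were 3, 4 and 4 of 10, against 24.8%, 6.7% and 42.1% of all genes. Of the 10 members, 5, 7 and 4 had a fold change above 0 with TCDD, Kyn and CH.

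Between compounds, at 10 µM and 1 h throughout, 3 members differed between TCDD and Kyn (LGR5 higher with TCDD, ASCL2 and NKD1 lower), against 9.19% of all genes (5.1% higher and 4.09% lower with TCDD). TCDD and CH differed in 5 members (LGR5, AXIN2 and TCF7 higher with TCDD, ASCL2 and EPHB2 lower), against 37.1% (19% and 18.1%). Kyn and CH also differed in 5 (AXIN2, ZNRF3 and TCF7 higher with Kyn, ASCL2 and SOX9 lower), against 33% (16.6% higher and 16.4% lower with Kyn). The largest of these differences were LGR5 between TCDD and Kyn (0.48, SE 0.0389, adjusted p = 1.8e-11) and between TCDD and CH (0.47, SE 0.0390, adjusted p = 3.6e-12). In the joint test of the 4 groups LGR5 (adjusted p = 1e-12), ASCL2 (3.3e-09), TCF7 (0.0067), AXIN2 (0.011), EPHB2 (0.021) and ZNRF3 (0.039) passed, 6 of 10 against 43.6% of all genes, and NKD1 (0.057), SOX9 (0.11), RNF43 (0.2) and NOTUM (0.39) did not. The joint count was 3 without the second CH library and 9 without the first Kyn library. The 3 comparisons with DMSO share the DMSO libraries.

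**Figure D2:**
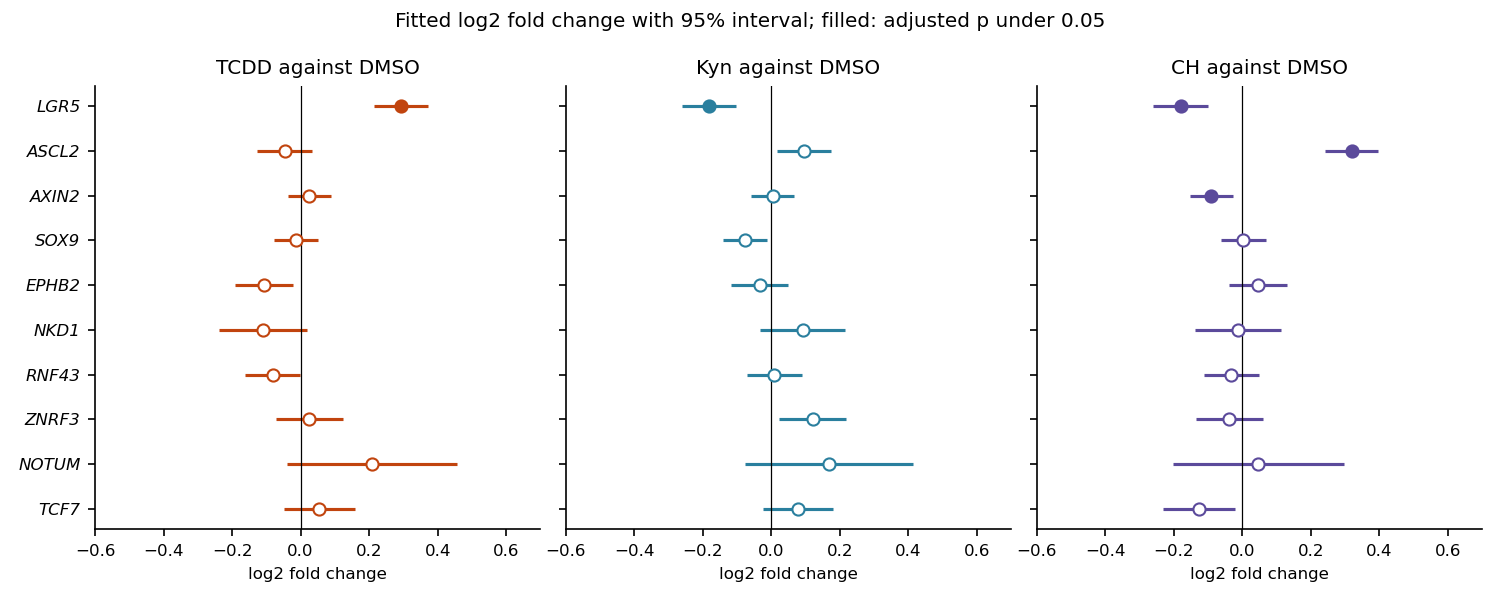
Log2 fold change of each member against DMSO with its 95% interval, for TCDD, Kyn and CH; filled points passed the adjusted p threshold of 0.05. LGR5 lies at 0.29 with TCDD and -0.18 with Kyn and CH, ASCL2 lies at 0.32 with CH, and the only other filled point is AXIN2 with CH.

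Across the 12 libraries the genes whose log2 CPM followed LGR5 most closely were FOSL2, an AP-1 subunit (Pearson r = 0.981), and CEMIP, a hyaluronan-binding protein that is also among the Wnt targets listed here (r = 0.978). CEMIP averaged 347 ± 9.34 CPM with DMSO, 495 ± 5.32 with TCDD, 299 ± 20.8 with Kyn and 303 ± 15.7 with CH. It was the 1 gene of the target list called with all 3 compounds, changing by 0.51 with TCDD (adjusted p = 4.7e-12), -0.22 with Kyn (0.0029) and -0.19 with CH (0.00023). The first Kyn library was the lowest of its group for CEMIP, at 275 CPM against 309 and 313. The CEMIP call with Kyn held under all 20 alternatives, the fit without that library included (highest adjusted p = 0.04). FOSL2 averaged 56.2 ± 0.199, 67.9 ± 0.260, 51.5 ± 1.77 and 49.9 ± 0.695 CPM with DMSO, TCDD, Kyn and CH. ASCL2 was followed most closely by ECI1, an enzyme of fatty acid oxidation (r = 0.986), and TGIF1, a homeobox repressor (r = 0.980), and TCF7 by ABHD17C and C2CD2L (both r = 0.914). These 12 points share their groups and depth and are given as a description.

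**Figure D3:**
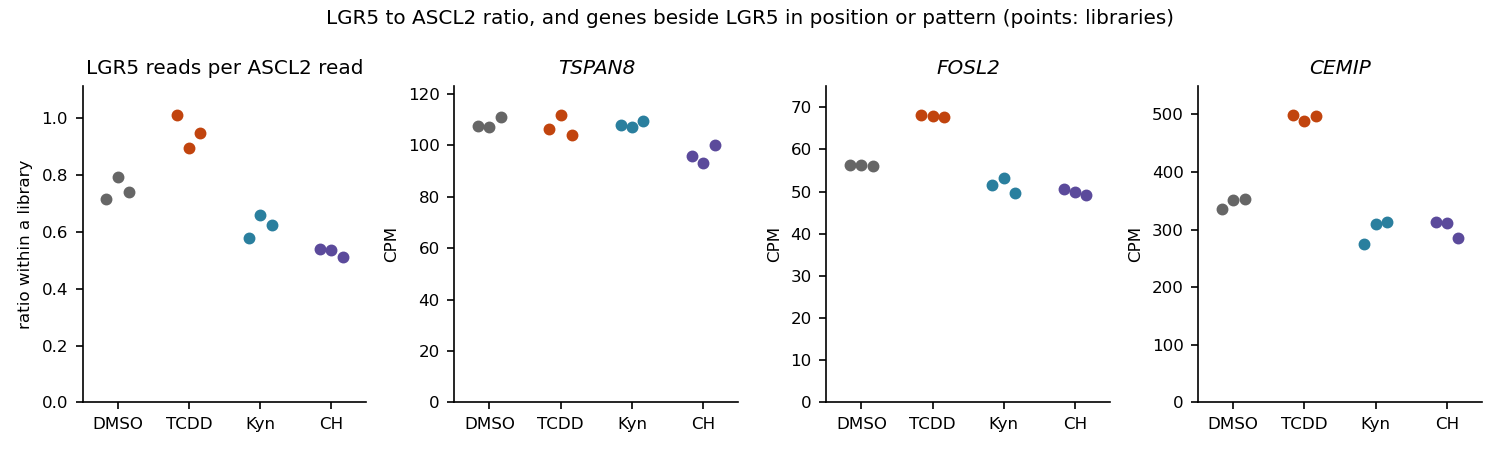
Number of LGR5 reads per ASCL2 read in each library, and CPM of TSPAN8, the gene overlapping LGR5, and of FOSL2 and CEMIP, the genes nearest to LGR5 in pattern; each point is 1 library. The ratio runs from 0.512 to 0.541 with CH up to 0.893 to 1.01 with TCDD with no overlap between groups, and FOSL2 and CEMIP are highest in the TCDD libraries while TSPAN8 is lowest in the CH libraries.

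The rest of the pathway was described by 8 lists of other genes, set out from the cell surface to the nucleus, and each count below is read against the shares of all genes called, 11.7% with TCDD, 0.294% with Kyn and 32.8% with CH. With Kyn 7 of the 8 lists had 0 calls by edgeR and by DESeq2, with 16 of their 101 tested genes at an unadjusted p under 0.05, against 6.7% of all genes. The list medians of the log2 fold change lay between -0.08 and 0.05 with TCDD, between -0.04 and 0.11 with Kyn and between -0.13 and 0.07 with CH.

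Of 25 ligands, secretion factors and R-spondins, 10 had enough reads to be tested, and RSPO1, RSPO2, RSPO3 and RSPO4, the secreted ligands of LGR5, had 0 reads in all 12 libraries, where 3 reads correspond to 0.106 to 0.140 CPM. With TCDD 2 of the 10 rose (WNT5A and WNT7B) and with CH 3 fell (WNT10B, WNT7B and WLS). WNT5A and WNT10B were low, with means of 0.862 and 1.53 CPM over the 12 libraries. WNT7B, a ligand, averaged 19.7 ± 1.74 CPM with DMSO, 27.4 ± 1.41 with TCDD, 18.5 ± 1.01 with Kyn and 12.7 ± 0.650 with CH, a change of 0.47 with TCDD (adjusted p = 1.9e-06) and -0.63 with CH (9.8e-09). The 3 calls with CH fell to 1 without the third DMSO library (WNT10B then at an adjusted p of 0.056), and the 2 with TCDD to 1 without the first DMSO or the third TCDD library.

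Of 15 tested receptors and co-receptors, 3 rose with TCDD (LRP6, LRP5 and FZD7), and with CH 2 rose (FZD4 and FZD2) and 3 fell (ROR1, LRP6 and LRP5). The co-receptor LRP6 averaged 110 ± 4.64 CPM with DMSO, 128 ± 0.557 with TCDD, 103 ± 8.67 with Kyn and 96.2 ± 0.176 with CH, a change of 0.21 with TCDD (adjusted p = 0.0008) and -0.20 with CH (0.00057). Its relative LRP5 averaged 209 ± 2.999, 243 ± 6.92, 216.5 ± 4.32 and 184.5 ± 8.41 CPM in the same order, with 0.21 for TCDD (adjusted p = 4.9e-05). ROR1, a receptor of non-canonical Wnt signalling, fell by 0.35 on the log2 scale with CH (adjusted p = 1.2e-05). FZD4 was no longer called without the first DMSO (adjusted p = 0.12) or the second CH library (0.23), and FZD2 without the third DMSO (0.05) or the third CH library (0.056).

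Of 8 tested inhibitors outside the members, among them Dickkopf-type and NKD2-type genes, 0 were called with TCDD, Kyn or CH by edgeR, and 0 by DESeq2; before adjustment 4, 0 and 0 of the 8 had a p under 0.05, against 24.8%, 6.7% and 42.1% of all genes. Of 19 Dishevelled and destruction complex genes, 2 rose and 2 fell with TCDD, and 4 rose and 3 fell with CH. CSNK1A1, the casein kinase that first phosphorylates β-catenin, rose by 0.24 with CH (adjusted p = 5.4e-07), from 276 ± 2.72 to 325 ± 7.08 CPM. APC rose by 0.23 with TCDD (adjusted p = 0.0047), lost without the first DMSO library (0.053) and with GC and length trends removed (0.11). DVL1 (-0.12, adjusted p = 0.043) and GSK3A (-0.11, adjusted p = 0.049) were the calls lower with TCDD and were lost without the first DMSO library (0.21 and 0.15), the third DMSO library (0.085 and 0.061), the first TCDD library (0.16 and 0.11), the third TCDD library (0.22 and 0.14) or the second CH library (0.059 and 0.066). With TCDD, GSK3A kept its call in 4 of 20 alternatives and DVL1 in 11. GSK3A also lost it without the second DMSO (0.11), the second TCDD (0.088), the second Kyn (0.055) or the first CH library (0.056). With CH, DVL1 (-0.15, adjusted p = 0.0059) and GSK3A (-0.13, 0.0053) fell as well, and both calls held under all 20 alternatives. The remaining fall with CH was CTNNB1, which encodes β-catenin (-0.09, adjusted p = 0.022), from 515 ± 5.90 to 483 ± 3.59 CPM.

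Of 20 tested nuclear factors, 3 rose and 1 fell with TCDD, and 4 rose and 2 fell with CH. TLE4, a Groucho co-repressor of TCF proteins, averaged 30.3 ± 0.802 CPM with DMSO, 43.8 ± 1.62 with TCDD, 27.6 ± 0.475 with Kyn and 21.8 ± 0.813 with CH, a change of 0.53 with TCDD (adjusted p = 3.6e-10) and -0.47 with CH (8.6e-09). Its relative TLE1 fell by 0.24 with TCDD (adjusted p = 0.00036). EP300, a histone acetyltransferase and co-activator, rose by 0.24 with TCDD (adjusted p = 0.00035). With CH, HBP1, a repressor of TCF activity, rose by 0.65 (adjusted p = 7.4e-08) and the Mediator subunit MED12 by 0.27 (9.8e-05). The 4 calls with TCDD became 7 without the second DMSO library.

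Of 27 tested Wnt and TCF target genes outside the members, 4 rose and 9 fell with TCDD (48.1% called), 1 fell with Kyn, and 4 rose and 11 fell with CH (55.6% called). The median log2 fold change was -0.08 with TCDD and -0.10 with CH. PROX1, a homeobox factor, rose with both, by 0.65 with TCDD (adjusted p = 3e-07) and 0.57 with CH (7.5e-07), from 10.2 ± 1.17 CPM with DMSO to 16.1 ± 0.615 and 15.2 ± 0.457. VEGFA, an angiogenic growth factor, rose with CH from 58.4 ± 0.242 to 122 ± 2.78 CPM (1.06, adjusted p = 3.2e-22) and was among the calls lower with TCDD. The AP-1 genes FOSL1 (-0.62, adjusted p = 5.1e-12) and JUN (-0.34, adjusted p = 1.1e-06) fell with CH. The ligand gene FGF20 (-0.99, adjusted p = 0.012) and EPHB3 (-0.22, adjusted p = 0.01), a relative of EPHB2, fell with TCDD. FGF20 was low, at 1.53 ± 0.0978 CPM with DMSO and 0.773 ± 0.2785 with TCDD. Both calls were lost without the third TCDD library (0.1 each), and FGF20 also without the first TCDD library (0.066). EPHB3 was also lost without the first DMSO library (0.06) and with GC and length trends removed (0.073). The other calls lower with TCDD were CCND1, MYC, MSX2, EPHB4, JUN, ETS2 and VEGFA. They ran from CCND1 (-0.21, adjusted p = 1.7e-05) to VEGFA (-0.14, adjusted p = 0.02). With CH, CCND1 (-0.25, adjusted p = 1.2e-07) fell too, as did JUN, while ETS2 (0.15, adjusted p = 0.0003) rose, as did VEGFA. MYC, MSX2 and EPHB4 were not called with CH. The other rises with TCDD, beside PROX1 and CEMIP, were BMP4 (0.15, adjusted p = 0.00057) and ID2 (0.12, adjusted p = 0.026), and both fell with CH. The 13 calls with TCDD became 8 without the first DMSO library and 6 without the third TCDD library.

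Of 19 tested stem cell genes outside the members, 3 rose and 1 fell with TCDD, and 2 rose and 5 fell with CH. CDK6, a cell cycle kinase, averaged 77.1 ± 4.29 CPM with DMSO, 113 ± 2.74 with TCDD, 75.1 ± 5.55 with Kyn and 65.4 ± 2.45 with CH, a change of 0.55 with TCDD (adjusted p = 3.5e-11) and -0.24 with CH (0.00018). TERT, the catalytic subunit of telomerase, was low at 1.70 ± 0.103 CPM with DMSO, 2.77 ± 0.264 with TCDD and 0.883 ± 0.240 with CH, a change of 0.70 (adjusted p = 0.0074) and -0.95 (0.001). The TERT call with TCDD was lost without the first DMSO (0.051) or the third TCDD library (0.057). ETV5, an ETS factor, rose by 0.79 with CH (adjusted p = 5.2e-16), from 33.8 ± 0.545 to 58.6 ± 1.98 CPM. The 7 calls with CH became 4 without the first CH library.

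Of 32 genes of differentiated intestinal cells, 10 had enough reads to be tested. With TCDD AGR2, a secretory cell gene, rose (0.12, adjusted p = 0.035), and with CH TFF3, a goblet cell peptide, rose (0.22, adjusted p = 0.035) and CA2, a carbonic anhydrase of colonocytes, fell (-0.59, adjusted p = 8.8e-06). CA2 went from 13.0 ± 2.0 CPM with DMSO to 8.62 ± 0.831 with CH. The calls of AGR2 and TFF3 depended on single libraries and on the method. AGR2 was lost without the first DMSO library or any 1 of the TCDD libraries, and with GC and length trends removed (0.23). TFF3 was lost without any 1 of the DMSO libraries or the third CH library, and with DESeq2 (0.093).

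**Figure D4:**
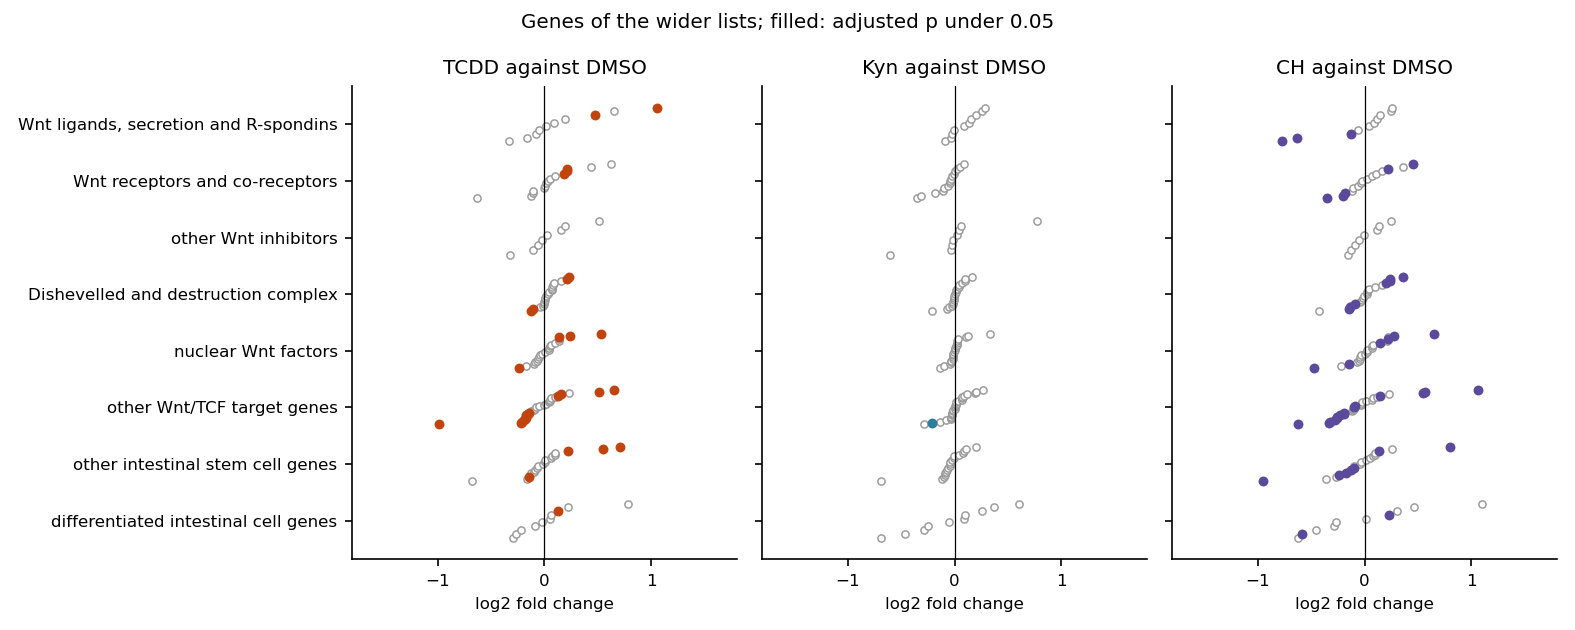
Log2 fold change against DMSO of every tested gene in each pathway or cell type list, with TCDD, Kyn and CH in separate panels; filled points passed the adjusted p threshold of 0.05. The Wnt and TCF target list holds the most calls, 13 with TCDD and 15 with CH, spread on both sides of 0, and the Kyn panel holds 1.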

How the data were processed

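Polyadenylated RNA of 12 DLD1 libraries was sequenced, 3 in each of 4 groups, and groups were taken from the labels. Per the submitters' processing notes, the authors used Trim Galore for trimming, STAR 2.7.2b for alignment to hg38, SAMtools 1.9 and, for counting, HTSeq; the protocol text differs in part, naming another STAR version and also NGS QC Toolkit, Bowtie and DESeq2, and does not mention CH223191, and the strand setting is not given in the sources used here. Each deposited file lists whole-number counts by gene symbol, not normalized. The 5 HTSeq summary counters were left out (reads without a feature, 6.59 to 8.48% of reads; ambiguous, 2.47 to 2.56%).

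The test was edgeR 4.0.16 (under R 4.3.3, with limma 3.58.1): filterByExpr (minimum count 10), TMM factors (0.988 to 1.02), a quasi-likelihood fit to all 12 libraries with 1 coefficient per group, and Benjamini-Hochberg adjustment over 13619 genes. The script was tested on simulated data. DESeq2 1.42.0 and 19 other alternatives were tried, 12 of them leaving out 1 library; the GC and length alternative used GENCODE 44, which matched 23161 of 26485 symbols. CPM used TMM-scaled totals, and log2 CPM a prior count of 2. Libraries of a group differed by 1.76 to 4.64 times sampling noise, so none was treated as a duplicate. Totals of 21397703 to 28247146 counted reads per library gave 92 or more reads for each member.

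The members and lists were chosen with earlier results of these data known. Named genes are the 10 members, the AHR check genes and the 2 nearest patterns of 3 members. From the lists they are up to 2 called rises and 2 called falls per list against DMSO, with a mean of at least 1 CPM. Of the genes that met this list rule, TNKS2, SIAH1, CHD8, CDCA7 and MSI2 are included in the counts but not described. Genes named beyond these (such as WNT5A, WLS, FZD7 and CTNNB1) complete a count and were chosen after their values were seen.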

Additional observations from a re-analysis of the deposited data

How the results depend on the processing

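Of 18 calls among 60 member comparisons, 10 held under all 20 alternatives and 8 were lost under 1 or more, with the losses in the report; 4 comparisons without a call gained one. No call changed direction. The number of members called was 0 with Kyn against DMSO in the fit of only those 2 groups (0 to 1 with 1 library left out) and 1 between TCDD and Kyn with GC and length trends removed (1 to 3). With 1 library left out it was 1 to 2 for TCDD against DMSO, 2 to 5 for Kyn against CH (2 without the second CH library) and 3 to 9 for the joint test. LGR5 also kept its fold change with TCDD between 0.23 and 0.32. TCF7 with CH against DMSO passed with GC and length trends removed (adjusted p = 0.024) and in the fit of only 2 groups (0.046), and EPHB2 between Kyn and CH with library totals (0.043). The causes were not tested.

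Member fold changes that reversed were all without a call and near 0. With GC and length trends removed these were ASCL2 with TCDD (0.0324), SOX9 with CH (-0.0168), TCF7 between TCDD and Kyn (0.0065) and LGR5 between Kyn and CH (0.041); NKD1 with CH was 0.0115 with library totals and 0.0001 with at least 5 CPM in 3 libraries. With 1 library left out, the ranges with TCDD were -0.0353 to 0.0066 for SOX9 and -0.0218 to 0.0647 for ZNRF3. Those with Kyn were -0.0061 to 0.0228 for AXIN2, -0.0788 to 0.0042 for EPHB2 and -0.0149 to 0.0501 for RNF43. Those with CH were -0.0184 to 0.0235 for SOX9, -0.0646 to 0.0355 for NKD1 and -0.0845 to 0.002 for ZNRF3. Between TCDD and Kyn they were -0.0646 to 0.1037 for NOTUM and -0.0573 to 0.0325 for TCF7, and between Kyn and CH -0.0199 to 0.007 for LGR5.

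The list counts under the alternatives were added after seeing the data. With TCDD, ligands had 1 call with at least 5 CPM or DESeq2 (1 to 2 with 1 library left out), inhibitors 1 with no filter, at least 5 CPM, GC and length removed or only 2 groups (0 to 1), Dishevelled and destruction genes 2 with library totals, the replicate block or DESeq2 and 0 with GC and length removed (1 to 4), and differentiated cell genes 0 with GC and length removed (0 to 1). Nuclear factors had 3 to 7 and targets 6 to 13 with 1 library left out. With CH, inhibitors had 1 with GC and length removed (0 to 1), differentiated cell genes 1 with DESeq2 (1 to 3), ligands 1 to 4 and stem cell genes 4 to 7.

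Libraries with the same number did not deviate together (correlations of -0.0554 to 0.0371 in 18 pairs, against -0.0528 to 0.0832 in 36 others). No pairing by number was therefore seen, which does not exclude that libraries of the same number were handled together. With the number as a replicate block the member counts were 1, 1 and 3 against DMSO for TCDD, Kyn and CH, 3 between TCDD and Kyn, 5 between TCDD and CH, 4 between Kyn and CH and 6 in the joint test. With 3 libraries per group, the intervals were widest for NOTUM, which had the fewest reads (92 at the lowest).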
